A study of Mus musculus with 2 samples.

Results

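The Brg1 islands described here are those that fall at the ends of neighbouring genes at once. An island is a region in which the authors' peak caller found reads enriched, and it was counted as shared when its midpoint lay within 1 kb of an end of at least 2 different RefSeq protein-coding genes. Of the 5727 islands in the list, 184 met this rule (3.21%, Wilson 95% interval 2.79 to 3.70). They made up 13.0% (11.4 to 14.9) of the 1415 islands whose midpoint lay within 1 kb of any protein-coding gene end. The other 1231 lay at the end of one protein-coding gene only and serve as the comparison. The ends of 2 genes met at 179 of the shared islands and those of 3 genes at 5, so that 371 genes were involved.

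The tissue was medulloblastoma, a cerebellar tumour, that formed spontaneously in mice of the genotype CAG-CreER, Rosa26-SmoM2. SmoM2 is an activated form of Smoothened, the transducer of Hedgehog signals, and CAG is a broadly active promoter that here drives the inducible recombinase. The ChIP library was made with the J1 antibody, which the labels give as recognising Brg1 and its paralogue Brm, and an input library of the same tissue and genotype, made without antibody, is not analysed here. There was 1 library of each kind, so no error between animals can be given, no test between conditions was possible, and the intervals below cover counting error only. The sources used here give neither the age of the animals nor the number of tumours in the library.

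Brg1, the product of Smarca4, is the motor subunit of BAF (SWI/SNF) complexes, which slide and evict nucleosomes and are often found at active promoters and enhancers. Many mammalian genes start close to a neighbour that is transcribed in the opposite direction, and such head-to-head pairs share 1 stretch of DNA as their promoter. These promoters are typically rich in CpG and poor in TATA boxes, and serve many genes of DNA repair, RNA processing and mitochondria. An island there cannot be assigned to either gene.

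At some of these islands both starts fall within a window as short as a single promoter. The windows below, from RefSeq on GRCm38.p6, run from 250 bases before to 50 bases after the start of the gene named, 5′ to 3′ on its strand. They are shown because each belongs to a head-to-head pair named further on and also holds a start of the partner gene listed in the same RefSeq table, to which the distances refer. For Wrap53 and Trp53 the outer ends of the genes, used for every other value, lie 98 bp apart. Capitals mark any match to 10 motifs searched on both strands. These were the GC box of Sp factors, GGGCGG, the CCAAT box, the TATA box in the form TATAAA, and a core bound by ETS factors, CCGGAAG. The others were the cyclic AMP element TGACGTCA, the E-box of proneural factors CAGATG, the E-box of Myc written CACGTG, the Gli site GACCACCCA, and the sites of NRF1 and YY1.
Mttp, with the start of Trmt10a 30 bases upstream of its own (chr3:138143369-138143668, minus strand): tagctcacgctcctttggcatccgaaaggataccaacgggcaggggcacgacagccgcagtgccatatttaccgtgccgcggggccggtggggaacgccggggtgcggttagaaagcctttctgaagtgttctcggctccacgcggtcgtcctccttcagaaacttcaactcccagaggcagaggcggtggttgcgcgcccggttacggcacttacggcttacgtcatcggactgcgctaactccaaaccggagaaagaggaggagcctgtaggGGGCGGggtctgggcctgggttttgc
Wrap53, with the listed start of Trp53 109 bases upstream (chr11:69580201-69580500, minus strand): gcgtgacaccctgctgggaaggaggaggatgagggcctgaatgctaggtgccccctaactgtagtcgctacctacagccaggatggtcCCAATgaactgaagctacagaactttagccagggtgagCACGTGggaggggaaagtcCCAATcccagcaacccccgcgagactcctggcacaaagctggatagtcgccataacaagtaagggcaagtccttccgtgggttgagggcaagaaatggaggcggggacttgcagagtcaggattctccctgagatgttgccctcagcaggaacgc
Gucd1, with the start of Snrpd3 70 bases upstream (chr10:75517923-75518222, minus strand): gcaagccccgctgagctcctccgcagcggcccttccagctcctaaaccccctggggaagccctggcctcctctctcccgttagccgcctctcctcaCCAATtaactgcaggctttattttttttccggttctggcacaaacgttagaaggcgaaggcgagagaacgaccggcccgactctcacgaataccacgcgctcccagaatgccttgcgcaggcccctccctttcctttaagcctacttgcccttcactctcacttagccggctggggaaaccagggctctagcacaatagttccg
Ccdc127, with the start of Sdha 77 bases upstream (chr13:74350067-74350366, plus strand): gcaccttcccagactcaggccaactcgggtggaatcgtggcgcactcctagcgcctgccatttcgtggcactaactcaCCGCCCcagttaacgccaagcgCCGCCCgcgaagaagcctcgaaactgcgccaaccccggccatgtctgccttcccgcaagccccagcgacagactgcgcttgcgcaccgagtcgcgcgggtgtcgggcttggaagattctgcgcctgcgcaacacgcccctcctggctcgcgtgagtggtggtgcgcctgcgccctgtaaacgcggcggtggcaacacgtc
Rpa3, with the start of Umad1 147 bases upstream (chr6:8259092-8259391, minus strand): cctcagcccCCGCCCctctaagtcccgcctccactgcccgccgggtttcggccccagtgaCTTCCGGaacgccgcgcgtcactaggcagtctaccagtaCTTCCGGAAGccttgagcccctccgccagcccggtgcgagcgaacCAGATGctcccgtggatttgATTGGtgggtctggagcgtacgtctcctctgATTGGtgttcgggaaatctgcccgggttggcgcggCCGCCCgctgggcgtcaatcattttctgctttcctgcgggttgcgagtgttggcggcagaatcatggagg
The window of Wrap53 was 57.3% G and C with a CpG content of 0.369 of that expected from its bases, and held 2 CCAAT boxes and a CACGTG. The window of Rpa3 was 64.3% G and C with a CpG content of 0.904 of expectation, and held 3 matches to the ETS letters, of which a pair overlap, 2 GC boxes, 2 CCAAT boxes and a CAGATG. The windows of Mttp, Gucd1 and Ccdc127 had CpG contents of 0.945, 0.742 and 1.04 of expectation.

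Most shared islands lay where genes start and run in opposite directions. Strand was known for both of the nearest genes at 141 of the 184. At 108 of these (76.6%, Wilson 95% interval 69.0 to 82.8) both nearest ends were starts on opposite strands. In 65 the genes pointed away from each other (head-to-head, median distance between the starts 99 bp) and in 43 they overlapped at their starts (median overlap 258 bp). A start met the end of a gene on the same strand at 17 islands, and a start met an end on the opposite strand at 5. At 8 islands the genes met tail-to-tail, at 2 both starts were on the same strand, and at 1 both ends were. At least 1 of the nearest ends was a start at 132 of the 141 islands (93.6%, 88.3 to 96.6), against 889 of 956 islands at one gene with known strand (93.0%, 91.2 to 94.4), and these intervals overlap.

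The number of shared islands depends on how many genes lie close together, so each arrangement was set against all pairs of protein-coding genes whose ends lie within 2 kb of each other. An island midpoint lay within 1 kb of an end of both genes in 67 of 647 head-to-head pairs (10.4%, Wilson 95% interval 8.24 to 12.9) and in 43 of 358 pairs with overlapping starts (12.01%, 9.04 to 15.8), together 10.9% of 1005 pairs of opposed starts. The share was 2.11% (1.35 to 3.27) of 902 same-strand pairs in which an end meets a start, and 0.763% (0.387 to 1.50) of 1049 tail-to-tail pairs. Over all 4810 close pairs, strand unknown included, it was 4.03%. Of 13854 lone starts, with no end of another protein-coding gene within 2 kb, 6.00% (5.61 to 6.41) had a midpoint within 1 kb. Of 13610 lone gene ends 0.434% (0.336 to 0.559) did. Genes that are not protein-coding were left out, so a lone start or end can lie close to one of them. Opposed starts thus had an island more often than lone starts, with intervals that do not overlap. With a midpoint required within 1 kb of an end of each gene, the interval of tail-to-tail pairs overlapped that of lone ends. Where a start met an end on the opposite strand the share was 9.59% of 73 pairs (4.72 to 18.5). A head-to-head pair offers more than a single start but a narrower stretch within 1 kb of both. With a midpoint within 1 kb of either of the closest ends, the share was 1.24% (0.726 to 2.11) of tail-to-tail pairs. This interval does not overlap that of lone ends. The share was 6.32% (4.91 to 8.10) of same-strand pairs in which an end meets a start, an interval that holds the 6.00% of lone starts. By this rule a pair offers more ends than a lone end does. With a midpoint within 1 kb of either start, the share was 12.1% of head-to-head pairs (9.77 to 14.8). By this measure it was 11.4% (8.82 to 14.7) of the 455 pairs whose starts are at most 250 bp apart, 15.1% (9.05 to 24.2) of 86 pairs over 250 and up to 500 bp apart, 19.0% (9.98 to 33.3) of 42 pairs over 500 bp and up to 1 kb apart, and 7.81% (3.38 to 17.02) of the 64 pairs whose starts are over 1 kb apart. All 4 intervals overlap, so no order with distance was resolved.

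**Figure D1:**
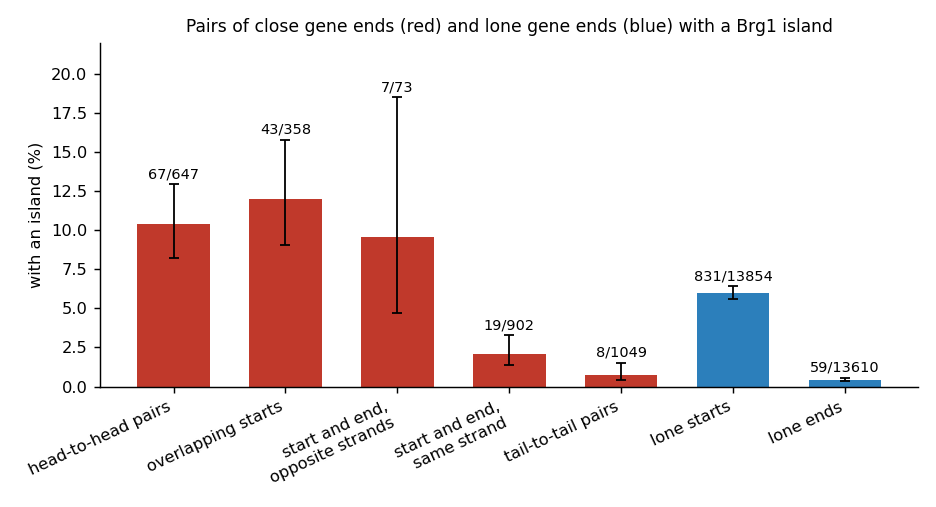
Share of close gene-end pairs (red) and of lone gene ends (blue) with a Brg1 island midpoint within 1 kb, of each end for pairs, in percent; bars are shares, error bars Wilson 95% intervals and labels counts. The shares of 10.4% and 12.01% for opposed starts lie above the 6.00% of lone starts, and 0.763% of tail-to-tail pairs had an island.

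Head-to-head and lone starts were also set side by side by CpG content. Promoter windows with a start within 1 kb of the gene's outer end were available for 15534 genes, and starts were split at their median CpG observed over expected (0.594), a split chosen after seeing the data. Of head-to-head starts 85.0% lay at or above this median, against 44.5% of lone starts. Among these CpG-rich starts, a midpoint lay within 1 kb of 121 of 1013 head-to-head starts (11.9%, Wilson 95% interval 10.1 to 14.1) and of 670 of 5560 lone starts (12.1%, 11.2 to 12.9). Within the CpG-rich class the shares therefore lay within each other's intervals. Below the median, a midpoint lay within 1 kb of 11 of 179 head-to-head starts (6.15%, 3.47 to 10.7). Among 6930 lone starts the share was 1.69% (1.41 to 2.02), and these intervals do not overlap. Each start was classed by its own window, so a CpG-poor head-to-head start can have a CpG-rich partner nearby, which a lone start lacks. Partners of a pair share an island, so the head-to-head starts are not independent and their intervals are too narrow.

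**Figure D2:**
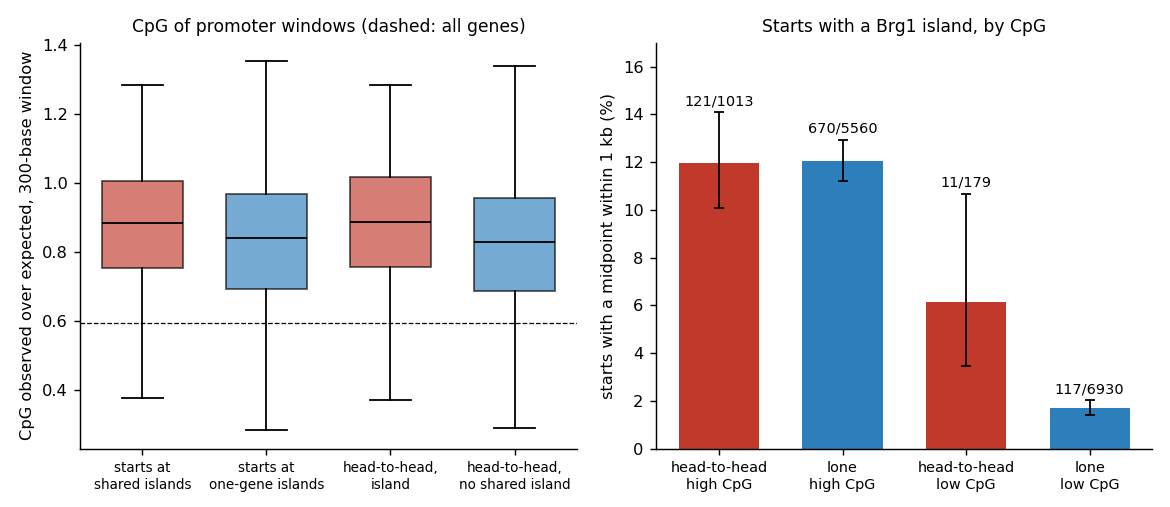
Left, CpG observed over expected in the 300-base promoter windows (box: median and quartiles; whiskers to 1.5 times the quartile range; dashed line: median of all genes, 0.594). Right, share of starts with an island midpoint within 1 kb, split at that median, with Wilson 95% intervals and counts; CpG-rich head-to-head and lone starts stand at 11.9% and 12.1%.

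The promoter windows of genes whose start lay at a shared island were CpG-rich, as were those at islands of one gene. Their median CpG was 0.884 of expectation (interquartile range 0.752 to 1.01, 247 windows), against 0.841 (0.691 to 0.967, 841 windows) at islands of one gene and 0.594 over all 15534 windows. Median G and C were 64.0%, 65.3% and 56.7% in the same sets. TATAAA was present in 4.05% of windows at shared islands (Wilson 95% interval 2.21 to 7.29), 6.78% (5.27 to 8.68) at islands of one gene and 13.8% of all windows. GGGCGG was present in 71.7%, 73.2% and 47.4%.

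The ETS letters CCGGAAG, which belong to a factor family that often binds housekeeping promoters, stood in 22.3% (17.5 to 27.9) of windows at shared islands and in 11.4% (9.44 to 13.7) of windows at islands of one gene. Over all windows the share was 12.2%. The letters stood in 26.8% (19.8 to 35.3) of 123 windows of head-to-head genes with a shared island and in 27.5% (24.9 to 30.3) of 1069 windows of head-to-head genes without one. Counted once per pair, either window held them in 21 of 58 pairs with an island (36.2%) and in 180 of 504 pairs without (35.7%). CCAAT was present in 38.9%, 39.2% and 39.8% of windows at shared islands, at islands of one gene and overall. The Gli letters GACCACCCA were found in 0 of 247 windows at shared islands (Wilson 95% upper bound 1.53%), in 4 of 841 at islands of one gene and in 25 of all windows, which says only that these letters are not in the windows searched.

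Shared islands and islands at one gene held much the same number of reads. Shared islands had a median of 66 reads (interquartile range 58 to 84, range 28 to 148), and islands at one gene a median of 67 (56 to 82, range 27 to 811). Median width was 2200 bp in both sets, as over all islands, and the median density 6.20 reads per 200 bp in both, against 6.27 over all islands. Because reads rise with width, each island was also ranked among islands of the same width, where the mean percentile was 48.9 for shared islands and 48.7 for islands at one gene. The interquartile ranges of the counts overlapped. No shared island had over 3 times the median density (Wilson 95% upper bound 2.05%). Of islands at one gene 3 did (0.244%, as over all islands), a share below that bound, so no difference was resolved. Without these 3 the highest count at one gene was 254 reads. Over 90 reads were held by 35 of 184 shared islands (19.0%, Wilson 95% interval 14.0 to 25.3) and 208 of 1231 islands at one gene (16.9%, 14.9 to 19.1). By arrangement, the median was 67 reads at head-to-head starts, 67 at overlapping starts and 64 where a start met an end on the same strand.

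**Figure D3:**
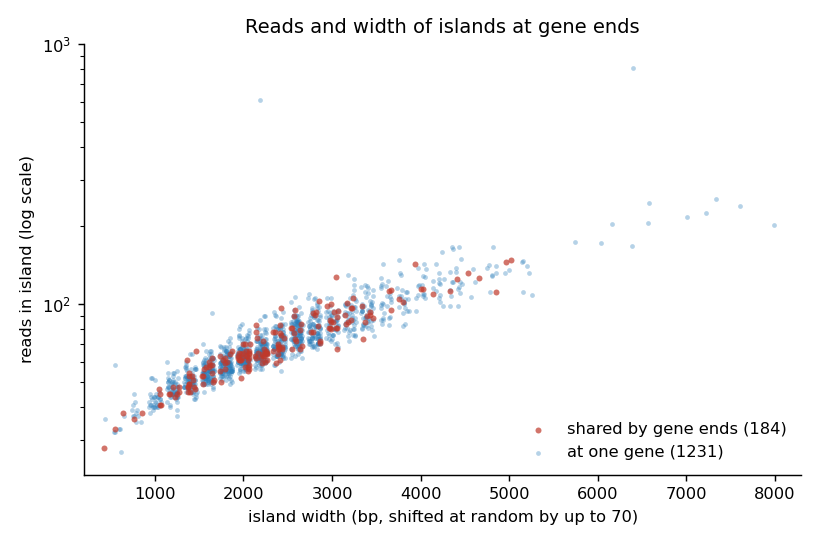
Reads (log scale) against width in bp for the 184 shared islands (red) and the 1231 islands at one gene (blue); each point is an island. The sets follow the same band, with medians of 66 and 67 reads, and the islands above 148 reads are all at one gene.

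The midpoint seldom lay in the short stretch between the genes. It fell between the nearest ends at 44 of 184 shared islands (23.9%, Wilson 95% interval 18.3 to 30.6), where the ends were a median of 652 bp apart, against 115 bp at the other 140. Islands were wide relative to these stretches and covered both ends in 175 of 184 (95.1%). Widths were multiples of 200 bp at 5724 of the 5727 islands, so a midpoint is not placed to the base. Whether it lies inside or outside a gap shorter than this step is therefore not resolved. At head-to-head pairs the midpoint lay inside a gene in 56 of 65 islands, a number that the short distance between the starts favours, and inside the longer gene in 34 of those 56. At the start of one gene the midpoint lay inside the gene in 66.0% of 889 (62.9 to 69.1).

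**Figure D4:**
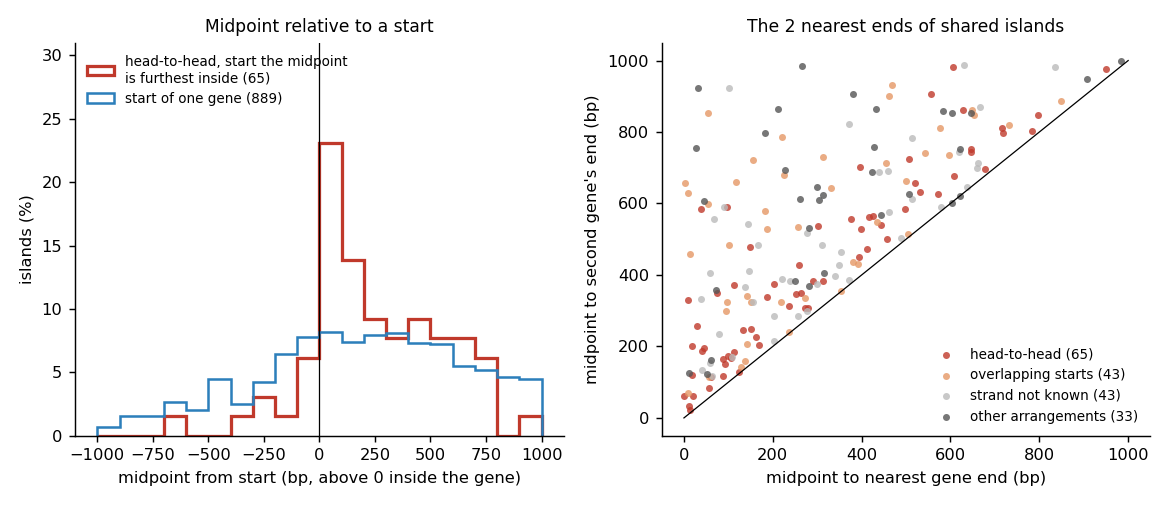
Left, island midpoint relative to a start in bp (above 0 inside the gene), as percent of islands, for the 65 head-to-head islands (measured from the start that the midpoint is furthest inside) and the 889 islands at the start of one gene; that choice of start raises the head-to-head values, so the heights of the sets are not compared. Right, distance in bp from the midpoint to the nearest and the second gene's end for the 184 shared islands, by arrangement; head-to-head points lie near the diagonal because their starts are a median of 99 bp apart.

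The 10 shared islands with the most reads had 113 to 148. The highest count, 148 reads (exact Poisson 95% interval 125 to 174) over 5000 bp on chromosome 13 (55470240 to 55475239, mm10), lay where Prr7 and Dbn1 end. Dbn1 encodes drebrin, an actin-binding protein of dendritic spines. The start shared by Hnrnph3, a splicing regulator, and Pbld2 had 145 reads (122 to 171; chromosome 10, 63021653 to 63026652). The promoter between Hnrnpa2b1, an RNA-binding protein of splicing and RNA transport, and Cbx3, which encodes the heterochromatin protein HP1-gamma, had 142 reads (120 to 167; chromosome 6, 51467402 to 51471401). The intervals of these islands overlap, so their order is not resolved.

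Zbtb1 and Zbtb25, zinc-finger genes of the BTB family, shared an island of 132 reads. The start region of Trmt10a, a tRNA methyltransferase, and Mttp, which loads lipid onto lipoproteins, had 127 reads over 3000 bp, at the 99.2nd percentile of the 298 islands of that width. Fubp1, a DNA-binding regulator of Myc, shared 126 reads with the co-chaperone gene Dnajb4, and the scaffold attachment factors Safb and Safb2 shared 125. Trp53, the tumour suppressor p53, and Wrap53, a telomerase and Cajal body protein, shared 114 reads over 4000 bp (94.0 to 137; chromosome 11, 69578099 to 69582098). An island of 114 reads stood where Rtn3, a reticulon of the endoplasmic reticulum, meets 2700081O15Rik tail-to-tail, and one of 113 reads at the starts of Naa50, an N-terminal acetyltransferase, and Atp6v1a, a subunit of the vacuolar proton pump. For their width most of these ranked between the 50.5th and 90.5th percentile, and the island at Trmt10a and Mttp stood above that range.

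**Figure D5:**
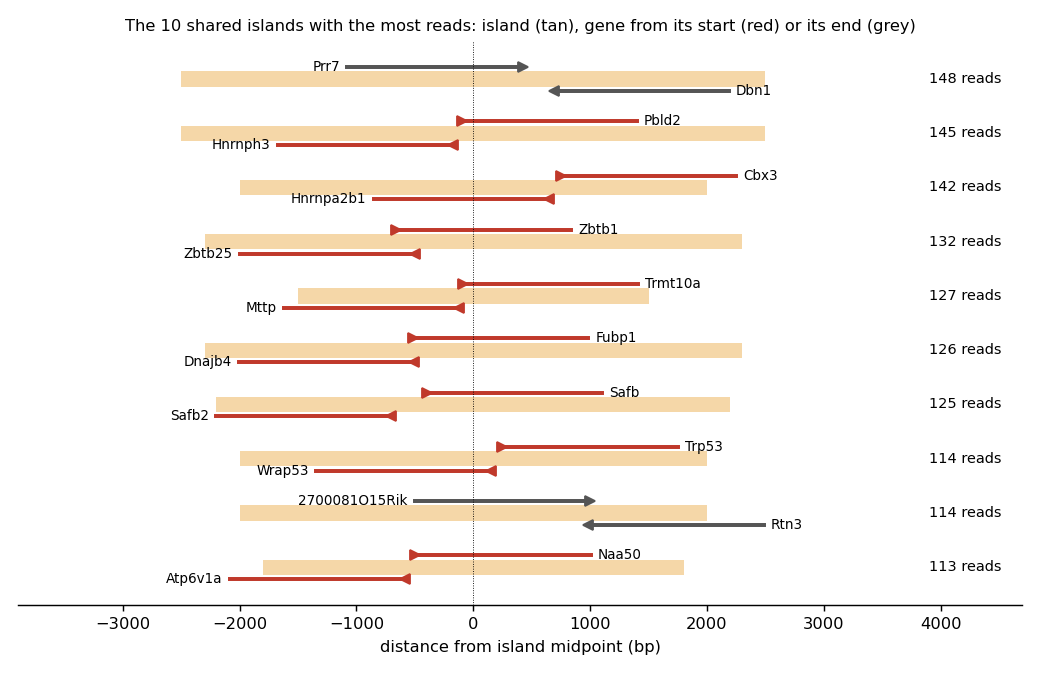
The 10 shared islands with the most reads (tan, to scale), with the nearest part of each gene, of equal length for all, drawn from its start (red) or its end (grey), arrowheads giving the strand, by distance in bp from the island midpoint. In 8 of the islands both genes start within the island, and in 2 (Prr7 with Dbn1, and Rtn3 with 2700081O15Rik) both end there.

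Tail-to-tail islands were few. Of the 8, 4 had over 90 reads (Wilson 95% interval of the share 21.5% to 78.5%), against 35 of all 184 shared islands (19.0%, 14.0 to 25.3), and these intervals overlap. The limit of 90 and the islands outside the 10 highest were chosen after their values were seen. The 4 were those of Prr7 and Dbn1 (148), Rtn3 and 2700081O15Rik (114), Spryd3 and Tns2 (96), and Rab3a and Mpv17l2 (91). Rab3a encodes a GTPase of synaptic vesicles and Tns2 a tensin of focal adhesions. The others had 58 to 66 reads. At 7 of the 8 no start in the RefSeq promoter table lay within 1 kb of the midpoint, the nearest being 2600 to 20254 bp away, and the island of Ovol3, Polr2i and Tbcb lay 785 bp from the annotated start of Tbcb. The table does not hold every gene, so an unlisted start near these islands was not tested.

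At 5 islands the ends of 3 genes met. The island of 64 reads at the opposed starts of Psme3ip1 and Rspry1 also lay at the end of the predicted gene LOC115486880. The translation repressor gene Eif4enif1 shared 63 reads with Gm51877 and Sfi1, a centrin-binding protein gene. The island of 63 reads at Polr2i, an RNA polymerase II subunit, lay at the ends of Ovol3 and Polr2i and near the start of Tbcb, a tubulin-folding cofactor. Naa38, Cyb5d1 and Tmem88 shared 57 reads. Borcs8, Gm45929 and Rfxank, a regulator of MHC class II genes, shared 46, and there Borcs8 and Gm45929 have the same annotated start.

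Gene lists showed which kinds of gene sat at shared islands, against 1.72% of all 21631 protein-coding genes at a shared island and 7.33% at any gene-end island. RNA processing and translation genes had 4 of 55 at shared islands (7.27%, Wilson 95% interval 2.86 to 17.3) and 13 at islands of one gene. Beside Hnrnpa2b1, these were the splicing factor U2af2 with 105 reads (shared with Ccdc106), the RNA helicase Ddx5 with 100 (with Cep95) and Hnrnpd, which binds AU-rich elements, with 93 (with 4930524J08Rik). Housekeeping genes had 3 of 42 (7.14%, 2.46 to 19.0): Polr2a, the largest subunit of RNA polymerase II, with 96 reads, the spliceosomal Snrpd3 with 94 (with Gucd1) and Sdha, of mitochondrial complex II, with 72 (with Ccdc127). The start of Polr2a lies 1251 bp from the end of Slc35g3 on the same strand, and the island between them ranked at the 99.2nd percentile of its width. Of the RNA processing genes 30 and of the housekeeping genes 18 had an end within 2 kb of another gene's, and of all 7048 genes with such an end 5.26% lay at a shared island.

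DNA replication, repair and cell cycle genes had 3 of 66 at shared islands (4.55%, 1.56 to 12.5). These were Trp53, Ccnd1 and the replication protein A subunit Rpa3, with 49 reads shared with Umad1. Mitochondrial genes had 2 of 49 (4.08%, 1.13 to 13.7), Sdha and the mitochondrial ribosomal protein gene Mrpl13, with 62 reads shared with Mtbp. The intervals of both lists include the 1.72% of all genes. Of the replication, repair and cell cycle genes 37, and of the mitochondrial genes 34, had an end within 2 kb of another gene's.

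Lists tied to the tumour's lineage and pathway had few or no shared islands, with intervals that include the 1.72% of all genes. None of 40 granule neuron progenitor and granule neuron genes lay at one (Wilson 95% upper bound 8.76%), although 11 lay at islands of one gene, and 9 of the 40 had an end within 2 kb of another gene's. Of 36 Hedgehog pathway genes 1 did, the cyclin D1 gene Ccnd1, and 3 lay at islands of one gene. The Ccnd1 island had 53 reads (39.7 to 69.3; chromosome 7, 144929696 to 144931095) and lay between an end of Ccnd1 and the end of LTO1, which are 817 bp apart. Of 58 BAF and other chromatin genes 1 did, the BAF subunit Smarcd2 with 62 reads at a start shared with Tcam1, and 18 lay at islands of one gene. Markers of oligodendrocytes, astrocytes, microglia and endothelium had 0 of 20 at shared islands (upper bound 16.1%) and 2 at islands of one gene. Only 4 of these markers had an end within 2 kb of another gene's, as did 11 of the Hedgehog genes and 26 of the chromatin genes.

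Of 14 textbook pairs with opposed starts, 2 had a shared island, against 10.9% of all 1005 close pairs of opposed starts, a count near the background: Trp53 with Wrap53, and Tk1, thymidine kinase, with Afmid, at 93 reads. No island midpoint lay within 1 kb of an end of either gene in the other 12, among them Atm and Npat, Brca1 and Nbr1, Hspd1 and Hspe1, Surf1 and Surf2, and Col4a1 and Col4a2.

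Families read off the gene symbols were chosen after their values were seen, so their counts only describe them. They stand against 1.72% of all genes and 5.26% of the genes with an end within 2 kb of another gene's, called a close end here. At a shared island lay 4 of 21 hnRNP genes (Hnrnpa2b1, Hnrnpd, Hnrnpdl and Hnrnph3), of which 13 had a close end. The same held for 5 of 38 Cep genes of the centrosome, with a close end in 17, and for 4 of 28 RNA polymerase subunit genes, with a close end in 20. It held for 6 of 78 mitochondrial ribosomal protein genes (close end in 50) and 8 of 100 histone genes (close end in 55). Of 11 Fanconi anaemia repair genes, 9 with a close end, 2 lay at a shared island, Fancf (101 reads, with Gas2) and Fancm (88, with Fkbp3). Of 397 zinc-finger genes named Zfp 6 did, with a close end in 81. None of 69 protocadherin genes (Pcdh, close end in 43) and none of 1110 olfactory receptor genes (Olfr, close end in 19) lay at a shared island. Other chromatin genes at shared islands, likewise chosen after their values were seen, were Smarcal1, an annealing helicase, with 112 reads, the histone demethylase Kdm5a with 104 and the corepressor Trim28 with 95. Hes7 and Hey1, repressors of the Notch pathway that were also chosen in this way, lay at islands of 84 and 46 reads. The midpoint at Hes7 lay 744.5 bp beyond the end of the gene, not at its start, and the strand of Hey1 was not known.

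Genes at shared islands had a median length of 17132 bp, against 31674 bp at islands of one gene and 17329 bp over all protein-coding genes. Another island midpoint lay within 20 kb of 14.1% of shared islands (Wilson 95% interval 9.83 to 19.9), 18.03% (15.99 to 20.3) of islands at one gene and 31.1% (29.7 to 32.5) of islands away from gene ends. By chromosome, shared islands were most numerous on 11 with 27, 7 with 20 and 3 with 17. The chromosomes named here were picked on their values and their shares carry no interval, so differences from all close pairs were not tested. On chromosome 3 shared islands took 9.14% of 186 close pairs, and on chromosome 11 7.19% of 431. On chromosome 7 they took 4.98% of 442, near the 4.03% of all close pairs. Chromosome 18 had 4 shared islands and 0.875% of 457 close pairs, of which 306 were pairs of clustered protocadherin genes. Chromosome X held only 23 islands of any kind, against 150 to 471 on each other chromosome. It had no shared island among 106 close pairs, and 6 islands at one gene.

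The 1 kb limit left islands close to it on either side. The second gene lay 989 bp from the midpoint at Cntnap1 and Ccr10 (67 reads) and 998 bp at Rtn3 and 2700081O15Rik. Just outside were the islands at H2ac18 and H3c14 (1008 bp, 39 reads) and at Nsmf and Pnpla7 (1009 bp, 68 reads), which count as islands of one gene. The 200 bp step of island widths is coarser than the distances that separate these islands from the limit.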

How the data were processed

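The deposited list holds 5727 islands of the ChIP library, giving the position of each and a whole number that, judged by its values, is the authors' count of reads there. The list has no header. Per the submitters' processing notes, the tools were SICER 1.1, Bowtie 0.12.7 and Picard 1.127, with mm9 and mm10 as builds and no roles stated; no source used here gives the thresholds or the use of the input. The counts are not scaled for depth or width, library depth is unknown, and only regions that passed the caller are listed. The other deposited columns are positions, printed here 1-based on mm10.

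Islands were assigned by midpoint to the ends of 21631 RefSeq protein-coding genes (GRCm38.p6). Strand came from the RefSeq promoter table, which matched 17274 of them; arrangement was read from the nearest ends of the 2 nearest genes. Predicted protein-coding genes count as genes. Genes of other kinds entered only where all annotated genes are named, so lone ends, close ends and islands of one gene refer to protein-coding genes. Density is reads per 200 bp. Intervals at 95% are Wilson for shares and exact Poisson for reads. Promoter features used the window nearest each gene's outer end, if within 1 kb. Calculations used Python 3.11.15, pandas 2.3.3 and scipy 1.17.1, and the assignment was tested on simulated islands. No test over regions or genes was run. The members and lists were chosen with earlier results of these data known. Genes named are the 10 islands with the most reads, those with 3 genes, up to 4 per list, fixed textbook pairs, the islands nearest the limit, and a few picked on seeing their values, which the text marks. Sequences shown are the promoter windows that lie within the island and hold a listed start of the partner, for head-to-head pairs named by reads, list or textbook pair.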

Additional observations from a re-analysis of the deposited data

How the results depend on the processing

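The number of shared islands followed the definition. Against 184, it was 86 within 500 bp, 297 within 2 kb, 306 when any part of an island could lie within 1 kb, 433 with all annotated genes, 82 among islands with at least the median read count and 112 with transcription starts only. The share at opposed starts (76.6%) was 88.9% within 500 bp, 60.6% both within 2 kb and by any part of the island, and 97.3% with starts only, which by construction leaves other arrangements out. The share of head-to-head pairs with an island (10.4%) was 6.69% within 500 bp, where only pairs with ends within 1 kb of each other enter. It was 4.95% with islands of at least the median count, where fewer islands enter. That restriction also raised the median reads to 86, by construction, and the median G and C of promoter windows to 66.7%. With all annotated genes the midpoint lay between the ends in 32.6% of shared islands. Of 105 alternative values, 69 stayed within 1.5 times the count or within the interval of the value reported and 36 moved; leaving out predicted genes, dense islands or repeated end coordinates moved none of them. The median reads stayed between 65.5 and 69 under the other 8 settings. No paired analysis was possible because there is 1 ChIP library and no test. An island at the limit of detection is not distinguished from none, since unlisted regions carry no value.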
